A study of Mus musculus with 3 samples.

Results

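Neurog2 and Tbr2 act in the same lineage of the embryonic cortex, and most Neurog2 sites of this series also carried a Tbr2 site. The regions described here are the exception: 449 Neurog2 peaks on the autosomes that met no Tbr2 peak, of 2640 Neurog2 peaks and 17179 peaks of both factors in all. They were chosen by the deposited intervals alone. A Neurog2 peak on chromosomes 1 to 19 was taken when it did not share even 1 bp with an interval of the Tbr2 list. This held for 17.5% of the 2571 autosomal Neurog2 peaks, and for 11.3% of the 1501 whose Neurog2 p-value was 1e-10 or less. They are called unshared peaks below, and the other 2122, which lay on a Tbr2 peak, shared peaks. That these regions lack a Tbr2 peak is therefore how they were defined and not a result.

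The peaks come from ChIP-seq, in which chromatin bound by a factor is precipitated with an antibody and sequenced. The tissue was the cerebral cortex of wild-type C57BL/6 mouse embryos at E14.5, with no mutation or treatment in any group. There were 3 libraries: 1 precipitated with an anti-Neurog2 antibody that was not commercial, 1 with a commercial anti-Tbr2 antibody, and 1 of input chromatin, for which no peak list was used here. All tissue was fixed with 2 mM disuccinimidyl glutarate for 45 min and with 1% formaldehyde for 10 min. A cortex holds many cell types, so binding in fewer cells and weaker binding per cell cannot be told apart. With 1 library per factor there is no replicate error. Peaks of a library are not replicates, so no difference below has a p-value, and the intervals given are 95% intervals over peaks that cover counting only.

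Neurog2 is a proneural factor of the basic helix-loop-helix family. It binds short E-box motifs together with an E-protein partner and turns on genes of neuronal differentiation in progenitors of excitatory cortical neurons. Tbr2, the T-box factor encoded by Eomes, marks the intermediate progenitors of this lineage, and Eomes itself is known as a target of Neurog2. An unshared peak is a place where the Neurog2 library gave a listed peak and the Tbr2 library did not. It does not show that Tbr2 was absent, because Tbr2 signal short of the list's limit, a p-value of 9.98e-06 for the weakest listed peak, is not seen in the files.

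Unshared peaks held fewer sequence tags than shared peaks, and their distributions overlapped widely. The median was 25 tags per peak (95% interval 24 to 27, interquartile range 18 to 33, n = 449), with a lowest value of 9 and a highest of 91. Shared peaks had a median of 33 tags (32 to 34, interquartile range 22 to 48, n = 2122) and reached 179. The ratio of the medians was 0.758. The library's total depth is unknown, so tags are compared only within the Neurog2 list. All tags of the unshared peaks together came to 12330, which was 13.3% of the 93045 tags in autosomal Neurog2 peaks, over 108 kb of the 742 kb that these peaks covered.

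Width followed the same order. Unshared peaks had a median width of 240 bp (231 to 250) and shared peaks one of 288 bp (284 to 295). A wide interval meets another interval more readily than a narrow one, so width is tied to the rule that chose the peaks. The fold change over background, which is the authors' value per peak, had a median of 10.9 (10.5 to 11.3) in unshared peaks and 11.98 (11.8 to 12.4) in shared peaks. These intervals did not meet, but the interquartile ranges, 8.82 to 13.2 and 9.78 to 14.8, overlapped for the most part. The highest fold change of an unshared peak was 27.8, and that of a shared peak was 98.4. The median rank in the Neurog2 list by p-value was 1772 for unshared and 1182 for shared peaks.

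**Figure D1:**
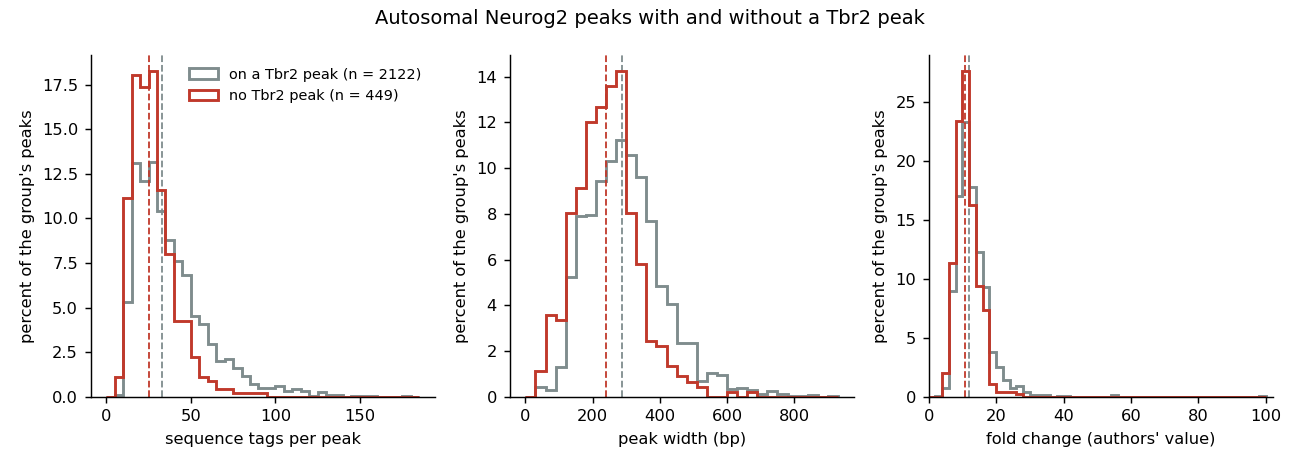
Histograms of sequence tags per peak, peak width in bp and the authors' fold change for unshared (red, n = 449) and shared (grey, n = 2122) autosomal Neurog2 peaks, as percent of each group, with dashed lines at the medians. The groups overlap in all 3 panels, and the grey curve alone reaches past 91 tags and a fold change of 27.8.

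The share of peaks without a Tbr2 peak was smaller among peaks with more tags. Among peaks with under 20 tags 136 of 529 were unshared, 25.7% (Wilson interval 22.2 to 29.6). At 30 to under 40 tags the share was 17.7% (14.6 to 21.3), close to that of all peaks. Among peaks with 60 tags or more it was 3.88% (2.24 to 6.66), or 12 of 309. By width the share was 56.1% (41.04 to 70.1) under 100 bp and 4.55% (1.96 to 10.2) at 500 bp or more. By fold change it was 34.6% (19.4 to 53.8) below 6, at 9 of 26 peaks, and 4.58% (2.23 to 9.14) at 20 or more, at 7 of 153.

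**Figure D2:**
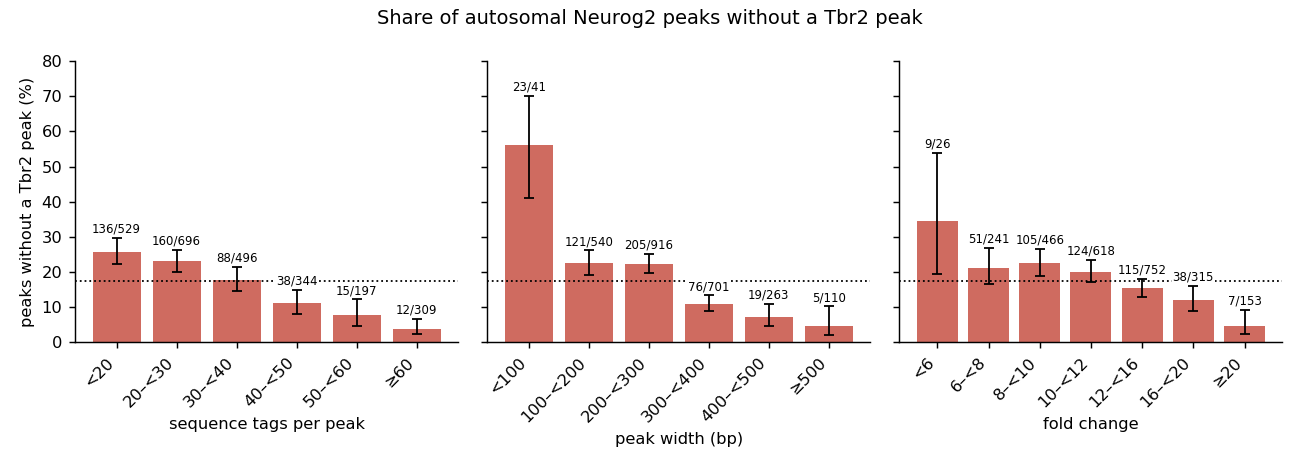
Percent of autosomal Neurog2 peaks without a Tbr2 peak in bins of tags, width (bp) and fold change; error bars are 95% Wilson intervals, the numbers are unshared over all peaks of the bin, and the dotted line is the share of all peaks, 17.5%. The bars fall from 25.7% under 20 tags to 3.88% at 60 tags or more.

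Tags and width are nearly the same measure in this list: across the 449 unshared peaks their Spearman correlation was 0.94, and across shared peaks 0.95. Within quartiles of width the tags of both groups were close. In the narrowest quartile, 45 to 207 bp, the medians were 16 tags for 164 unshared and 17 for 480 shared peaks. From 208 to 279 bp both medians were 26. In the widest quartile, 352 bp and more, they were 52 and 59. Fold change behaved differently from tags. It was close between the groups in the lowest quartile of tags, 11.8 in each, and lay further apart in the highest quartile, from 46 tags up, at 11.4 for 45 unshared against 14.3 for 592 shared peaks. Across unshared peaks tags and fold change had a Spearman correlation of -0.26, and across shared peaks of 0.22. These correlations are over peaks of 1 library, which share its depth and peak caller.

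**Figure D3:**
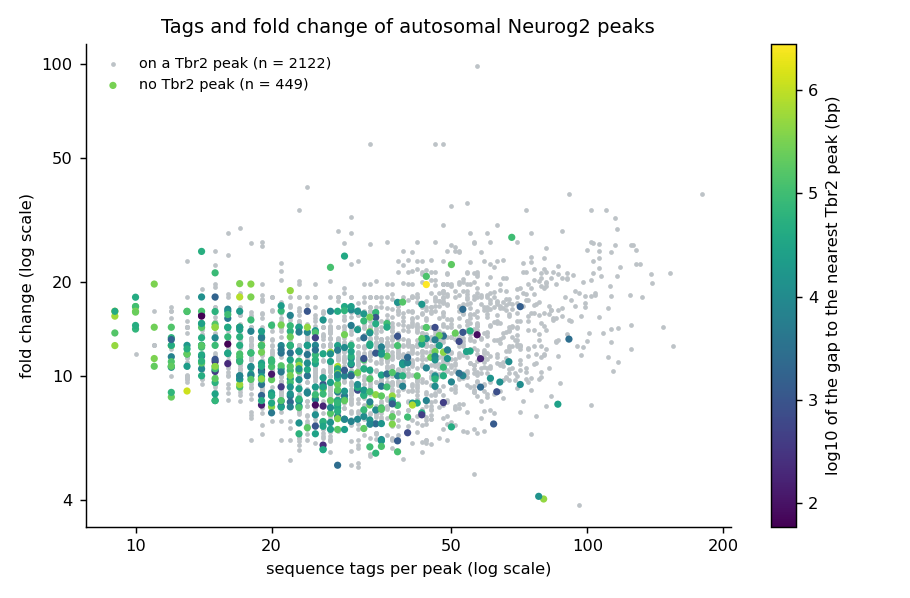
Fold change against sequence tags (both on log axes) for shared peaks (grey) and unshared peaks (coloured by the log10 of the gap in bp to the nearest Tbr2 peak). Unshared peaks reach up to 91 tags and a fold change of 27.8, and 2 of them with 78 and 80 tags lie at fold changes of 4.11 and 4.03.

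The unshared peak with the most tags, 91, was at chr19:41809049-41809659 (mm9). It was 611 bp wide, had a fold change of 13.1 and a p-value of 1.51e-38, the smallest of any unshared peak, and stood at rank 106 of the list. A Tbr2 peak of 67 tags began 2.79 kb to its right and did carry a Neurog2 peak. The peak at chr13:63653862-63654252 was placed alike, with 71 tags and a fold change of 16.7, at 1.42 kb from a Tbr2 peak with a Neurog2 peak of its own. Both lay beside a shared site rather than on it.

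Some other strong unshared peaks were far from Tbr2 peaks. At chr1:192695919-192696444 the peak had 68 tags and the highest fold change of the group, 27.8 (p-value 1.21e-35, rank 144), and the nearest Tbr2 peak was 99.3 kb away. At chr10:12266979-12267399 there were 50 tags at a fold change of 22.7, 192 kb from the nearest Tbr2 peak. The peak at chr3:9885572-9885960 had 55 tags at a fold change of 13.9 and a gap of 52.6 kb. These strong unshared peaks thus stood at gaps from 1.42 kb to 192 kb. Over all unshared peaks with 30 tags or more the median gap was 22.6 kb (15.2 to 37.7, n = 153). It was 38.1 kb (30.1 to 49.2, n = 296) for those with under 30 tags.

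Among the other peaks with most tags, the 3 described here had a Tbr2 peak 10.5 to 27.3 kb away. At chr1:157080930-157081594, the widest unshared peak at 665 bp, 86 tags were counted at a fold change of 8.11, and the gap was 27.3 kb. At chr17:31927684-31928166 there were 71 tags at a fold change of 9.38 and a gap of 10.9 kb. At chr12:12884423-12884831 there were 67 tags at 11.1 and a gap of 10.5 kb.

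Tags and fold change disagreed at 2 of the 8 unshared peaks with most tags. At chr15:74916504-74916621, only 118 bp wide, 80 tags gave 67.8 tags per 100 bp, the highest density of any autosomal Neurog2 peak. Yet its fold change was 4.03 and it stood low in the Neurog2 list by p-value, at rank 2378 of 2640. The nearest Tbr2 peak was 495 kb away. At chr17:27543857-27544333, 78 tags came with a fold change of 4.11 and a gap of 14.7 kb. Fold changes under 6 were found at 9 unshared peaks, 2.00% (1.06 to 3.77), and at 17 shared peaks, 0.801% (0.501 to 1.28), against 1.01% of all autosomal Neurog2 peaks. The 7 others of the 9 had 26 to 38 tags and fold changes of 5.17 to 5.94.

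Very narrow peaks were the bin with the largest unshared share. The 23 unshared peaks under 100 bp were spread over 13 chromosomes and had few tags, with a median of 10 and a range of 9 to 28. Their fold changes had a median of 14.3 and a range of 8.05 to 25.04, against a median of 10.9 for all unshared peaks. Only 1 of the 23 lay within 10 kb of a Tbr2 peak, and their median gap was 144 kb. The 18 shared peaks of this width had a median of 12.5 tags and a fold change of 17.9. The second highest fold change of all unshared peaks, 25.04, belonged to such a peak, at chr4:154282770-154282835 with 14 tags over 66 bp. It was followed by chr4:149364366-149364588, at 24.2 with 29 tags.

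The limit between the groups was sharp in these lists. Of the 2122 shared peaks 2084, 98.2%, lay wholly inside Tbr2 peaks, and 38 reached beyond an edge. The smallest overlap was 32 bp, at chr7:122712337-122712714, a peak of 378 bp with 44 tags and a fold change of 6.09. The next smallest overlaps, 45 to 53 bp, belonged to narrow peaks of 9 to 12 tags that lay entirely within a Tbr2 peak. On the other side, no unshared peak came closer than 59 bp to a Tbr2 peak. That peak, chr1:37179830-37179988, had 16 tags and a fold change of 12.6. The Tbr2 peak beside it had 104 tags and carried a Neurog2 peak, and the next Neurog2 peak was 323 bp away. Next came chr4:146958983-146959119 at 61 bp with 14 tags, chr1:155488685-155489043 at 85 bp with 57 tags, chr9:64380717-64380992 at 87 bp with 25 tags, chr16:91304002-91304252 at 117 bp with 20 tags and chr15:78593682-78593895 at 134 bp with 19 tags. Among these 6, the peak at 61 bp had the highest fold change, 15.5. The peak at 85 bp had the most tags and the best rank by p-value, 351, with a fold change of 13.5. Its neighbouring Tbr2 peak was weak, at 31 tags and rank 11364 of the Tbr2 list.

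A larger share of unshared peaks had a Tbr2 peak within 10 kb than of the same intervals moved along the chromosome. The gap, measured between nearest edges, had a median of 32.7 kb (27.3 to 41.4, interquartile range 9.13 to 113 kb, n = 449). A Tbr2 peak stood within 10 kb of 119 unshared peaks, 26.5% (22.6 to 30.8), or 14.48% when only Tbr2 peaks with a p-value of 1e-10 or less were counted. Each interval was then displaced by a fixed distance to either side, which keeps its width and chromosome, and the positions that landed on a Tbr2 peak were left out as the rule does. After 100 kb the share within 10 kb was 14.9% (12.7 to 17.5) of 883 positions, and the median gap was 54.7 kb (48.6 to 61.3). Displaced positions come in pairs from 1 peak and are not independent, so their intervals are too narrow.

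The displaced shares depended on how far the intervals were moved. Within 10 kb of a Tbr2 peak lay 19.01% (16.6 to 21.7) after 25 kb, 17.2% after 50 kb, 13.2% after 200 kb, 11.2% after 500 kb and 9.50% after 1 Mb. After 25 kb the median gap was 34.5 kb (30.6 to 40.2), which the interval of the unshared peaks in place includes, so at that displacement the curves differed at short range and not at the median. In proportion, the difference was larger at shorter range. Within 1 kb there were 27 unshared peaks, 6.01% (4.17 to 8.61), against 2.02% after 25 kb, 2.92% after 50 kb, 1.81% after 100 kb and 0.679% after 1 Mb. Within 100 kb the shares were alike, 73.1% for the unshared peaks, 72.4% after 25 kb and 70.1% after 100 kb, while after 1 Mb it was 57.5%. A move of 25 kb changes a gap by at most about 25 kb, so the likeness after 25 kb follows in part from the displacement. Unshared peaks with a Neurog2 p-value of 1e-10 or less showed the same order, with 29.6% (23.2 to 36.9) within 10 kb in place and 15.7% after 100 kb. Unshared peaks with 30 tags or more had 33.3% (26.4 to 41.1) and 17.3%, and those with under 30 tags had 23.0% (18.5 to 28.1) and 13.7%.

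A larger share of shared peaks had another Tbr2 peak around them. Leaving out the Tbr2 peak they lay on, 847 of 2122 had another within 10 kb, 39.9% (37.9 to 42.02). Over both groups this was 37.6% of autosomal Neurog2 peaks, so the unshared peaks at 26.5% were under the background. Shared peaks displaced by 100 kb had a Tbr2 peak within 10 kb at 17.1% of positions. The median gap to the nearest Tbr2 peak not overlapped was 16.3 kb (14.7 to 18.4) for shared peaks. Within 200 bp the order was the other way round, with 10 unshared peaks, 2.23% (1.21 to 4.05), and 10 shared peaks, 0.471% (0.256 to 0.865). Nearly all shared peaks lie inside a Tbr2 peak, whose own width separates them from the next, so this short range is not measured alike in the groups.

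**Figure D4:**
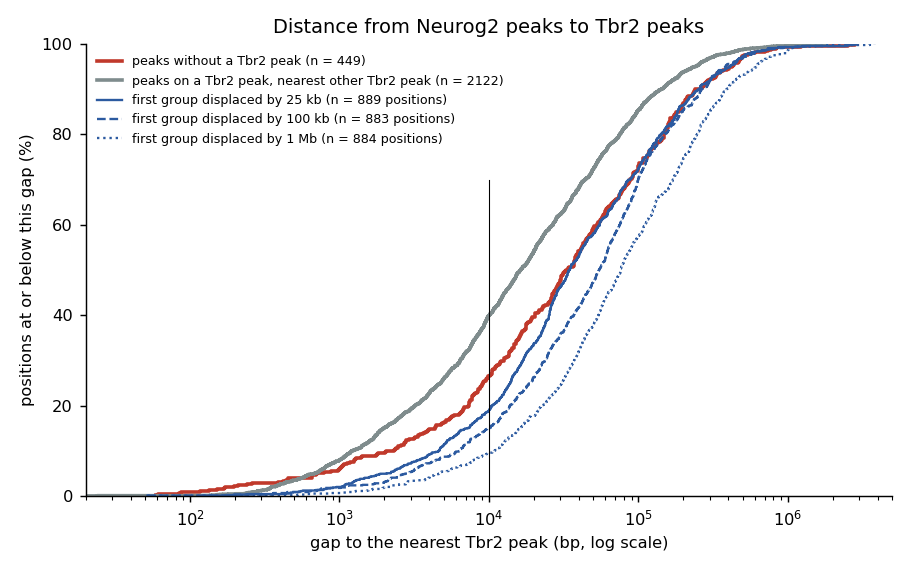
Cumulative percent of positions against the gap in bp (log axis) to the nearest Tbr2 peak, for unshared peaks (red), shared peaks measured to the nearest Tbr2 peak they do not overlap (grey), and unshared peaks displaced by 25 kb, 100 kb or 1 Mb (blue); the vertical line is at 10 kb. At that line the red curve stands at 26.5%, the grey at 39.9%, and the blue curves at 19.01%, 14.9% and 9.50%.

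The wider surroundings differed for Tbr2 peaks and hardly for Neurog2 peaks. These counts were taken between midpoints, unlike the gaps between edges above. With a midpoint within 100 kb of that of an unshared peak there was a mean of 2.32 Tbr2 peaks, and 27.8% had none. Shared peaks had a mean of 3.07, not counting those they overlapped, and 14.7% had none. Within 1 Mb the medians were 14 and 16 Tbr2 peaks. Other Neurog2 peaks within 100 kb averaged 0.960 around unshared and 1.01 around shared peaks, and within 1 Mb both medians were 3. The surroundings of unshared peaks thus held about as many Neurog2 peaks and fewer Tbr2 peaks.

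The Tbr2 peaks next to unshared peaks had about the median tags of their list. The 402 distinct nearest Tbr2 peaks had a median of 39 tags, the same as all 14321 autosomal Tbr2 peaks, and a median fold change of 8.86 against 9.61. Tbr2 peaks that carried a Neurog2 peak had 71 tags and a fold change of 13.7. Of the nearest Tbr2 peaks 86, 21.4%, carried a Neurog2 peak, against 14.0% of all autosomal Tbr2 peaks. The tags of unshared peaks changed little with the gap. The median was 26 for the 27 peaks within 1 kb, 28 for the 92 from there to 10 kb, 25 for the 209 up to 100 kb and 23 for the 121 farther away. Across the 449 peaks the Spearman correlation of gap and tags was -0.19.

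A small number of unshared peaks lay in long stretches without any Tbr2 peak. The farthest, at chr7:19527785-19528114, was 2.79 Mb from the nearest Tbr2 peak and was among the stronger unshared peaks, with 44 tags, a fold change of 19.6 and rank 381. It shared a Tbr2-free stretch of 9.51 Mb with the peak at chr7:17573853-17574047, which had 19 tags and a fold change of 12.5. These were the only Neurog2 peaks of that stretch. The peak at chr12:22814311-22814382, 2.51 Mb from the nearest Tbr2 peak and alone in a stretch of 7.59 Mb, had only 9 tags over 72 bp. The remaining peaks with the largest gaps were chr19:12869208-12869359 (gap 1.22 Mb, 13 tags), chr12:115625145-115625282 (0.830 Mb, 17 tags) and chr15:103349093-103349365 (0.772 Mb, 25 tags), with fold changes of 8.94, 17.9 and 8.45. Of these 6 peaks, 1 had more than 25 tags.

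A smaller share of unshared than of shared peaks had another Neurog2 peak within 10 kb. Within 10 kb 73 of 449 did, 16.3% (13.1 to 19.96), against 490 of 2122 shared peaks, 23.1% (21.3 to 24.9), and 21.9% of all autosomal Neurog2 peaks. Within 100 kb the shares were 46.3% (41.8 to 50.9) and 47.8% (45.7 to 49.9). At close range the neighbour of an unshared peak was mostly unshared too. Another Neurog2 peak lay within 500 bp of 24 unshared peaks, 5.35% (3.62 to 7.83), and of 208 shared peaks, 9.80% (8.61 to 11.1). Of the 24, 22 had an unshared neighbour, in 11 pairs, and 2 a shared one. A shared neighbour so near brings a Tbr2 peak with it, so this count follows partly from the rule.

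The lists do not tell whether paired peaks were separate sites. In the 11 pairs the peaks were 4 to 343 bp apart, with a median of 72 bp, and held 11 to 36 tags each. Chromosome 17 had 4 of the 11. These stood at chr17:6933715-6934023, chr17:8398069-8398493, chr17:8540717-8541112 and chr17:30010476-30010968. They were chosen for mention after their values were seen. With Neurog2 peaks up to 500 bp apart joined and counted once, 436 of 2452 autosomal sites had no Tbr2 peak, 17.8%.

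Joined across gaps of up to 50 kb, unshared peaks formed 34 groups of 2, 2 groups of 3 and 1 group of 4, and 371 stood alone. The group of 4 was at chr10:77204736-77261242, over 56.5 kb that held no Tbr2 peak and no shared Neurog2 peak. Its peaks had 27, 17, 12 and 17 tags and fold changes of 22.3, 11.8, 14.3 and 14.3, and the nearest Tbr2 peak was 118 to 175 kb away. The spans of the groups of 3 did hold Tbr2 peaks. At chr5:125593575-125640121 the unshared peaks had 26, 53 and 40 tags, and the span also held 3 Tbr2 peaks and 2 shared Neurog2 peaks. At chr11:80106009-80126040 they had 25, 22 and 48 tags, and the span held 1 Tbr2 peak. The next groups in order were pairs at chr1:33578855-33579479, with 20 and 15 tags and a gap of 87.2 kb, and at chr1:37138378-37179988, with 49 and 16 tags in a span that held 1 shared Neurog2 peak.

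Over the chromosomes unshared peaks were spread at 0.188 per Mb, from 0.104 on chromosome 18 to 0.292 on chromosome 4, which had 44. The share of Neurog2 peaks without a Tbr2 peak ran from 11.5% on chromosome 18 (6.19 to 20.5) and 11.8% on chromosome 6 (7.5 to 18.1) to 24.2% on chromosome 17 (16.5 to 33.9) and 24.5% on chromosome 15 (17.2 to 33.7). The interval of each of the 19 autosomes held the autosomal share of 17.5%. In windows of 1 Mb, 278 windows held 1 unshared peak, 57 held 2, and 1 window each held 5 and 6. The window with 6, on chromosome 10 from 77000001 to 78000000, included the group of 4 and had 1 shared Neurog2 peak and 1 Tbr2 peak. The window with 5, on chromosome 8 from 125000001 to 126000000, was of the other kind, with 6 shared Neurog2 peaks and 18 Tbr2 peaks.

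**Figure D5:**
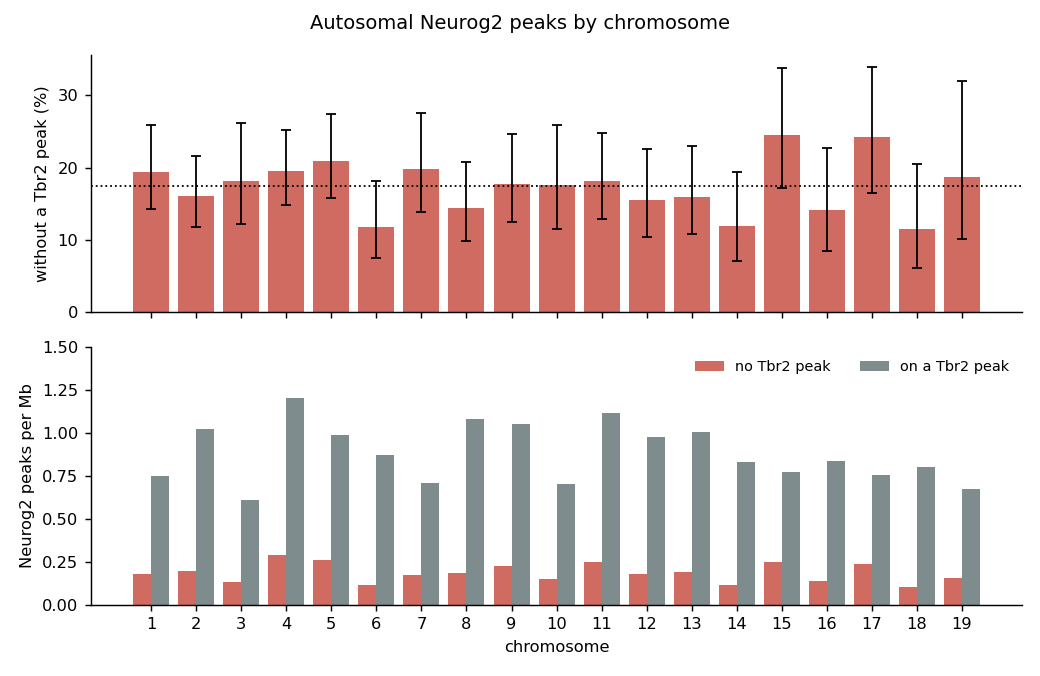
Above, percent of Neurog2 peaks without a Tbr2 peak on each autosome, with 95% Wilson intervals and a dotted line at 17.5%. Below, unshared (red) and shared (grey) Neurog2 peaks per Mb between the first and last listed peak; every interval in the upper panel crosses the dotted line, and chromosome 4 has the most unshared peaks per Mb, 0.292.

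Neurog2 tags were set against the strength of the Tbr2 peak at the same place, with the unshared peaks as the class without one. Their median of 25 tags (24 to 27) was under that of every class with a Tbr2 peak, though its interval met those of the weaker classes. The 366 Neurog2 peaks on Tbr2 peaks with a p-value above 1e-10 had a median of 28 (26 to 30). Those on Tbr2 peaks of 1e-10 to above 1e-20 had 29 (27 to 31, n = 481), of 1e-20 to above 1e-40 had 32 (30 to 34, n = 557), and of 1e-40 or less had 39 (37 to 41, n = 718). The order was not strict at the weak end. On the 93 weakest Tbr2 peaks, with p-values above 1e-6, the median was 31 (26 to 35), and on the 273 of 1e-6 to above 1e-10 it was 27 (25 to 29). With Tbr2 peaks limited to a p-value of 1e-10 or less, 815 Neurog2 peaks, 31.7% (29.9 to 33.5), had none, so how many Neurog2 peaks count as unshared depends on where the Tbr2 list ends.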

How the data were processed

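Per the submitters' processing notes, Bowtie 0.12.3 (an aligner), MACS 1.4 (a peak caller) and build mm9 were used. What each did, with which settings, which control and which treatment of duplicate reads, no label or header used here records. Per the file headers, each ChIP library has 1 list of peaks, exported from GeneProf. For each peak the authors deposited other values as text: a fold change, an FDR, a p-value and a number of tags. The deposited score column holds 750 for every peak and was not used. Positions are given counted from 1. No mm9 genome or annotation was used, so genes, exons, introns and sequences of the peaks are not given here.

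Overlaps, gaps and displacements were computed in Python 3.11.15 with numpy 2.4.6, pandas 2.3.3 and scipy 1.17.1, and tested on simulated intervals. Displaced intervals stayed between the first and last listed peak of their chromosome. Share intervals are Wilson intervals. Median intervals come from binomial order statistics. Named regions are the 8 unshared peaks with the most tags, 5 each by fold change and p-value, 6 each with the smallest and largest gaps, shared peaks with the smallest overlaps, and 5 groups. The members and lists were chosen with earlier results of these data known.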

Additional observations from a re-analysis of the deposited data

How the results depend on the processing

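No paired analysis was possible because each factor had 1 library, and for the same reason no replicate could be left out. Of 37 alternatives, 19 stayed within the main value's 95% interval and 18 did not. Several of the 18 changed the distance, the neighbours or the Tbr2 peaks counted, which sets the direction of the move. The tally therefore does not measure how stable the results are. The causes were not tested except where the alternative's construction sets the value. The share of Neurog2 peaks without a Tbr2 peak was 17.5%, and 11.3% with Neurog2 p-values of 1e-10 or less, or 31.7% with such a limit on Tbr2, which leaves fewer Tbr2 peaks to meet. It stayed between 16.4% and 18.02% with Tbr2 peaks extended by up to 1000 bp, with a midpoint or half-coverage rule, with an FDR limit of 5%, with the X chromosome or with Neurog2 peaks joined. The ratio of median tags, 0.758, was 0.9496 for tags per 100 bp and 0.956 within quartiles of width. The ratio of median widths, 0.833, was 0.972 within quartiles of tags. A Tbr2 peak lay within 2, 50 and 100 kb of 9.58%, 59.2% and 73.1% of unshared peaks, and within 10 kb of 14.48% with the strict Tbr2 limit, under which the median gap was 82.1 kb in place of 32.7. Displaced by 25 kb, 500 kb and 1 Mb, 19.01%, 11.2% and 9.50% lay within 10 kb, against 14.9% after 100 kb. Another Neurog2 peak lay within 2, 50 and 100 kb of 8.24%, 33.6% and 46.3%, and within 10 kb of 8.46% when only unshared and 9.13% when only shared neighbours counted, against 16.3% for any. Library depth is unknown. The joined peaks and a limit on fold change were added after the data were seen.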

Other observations

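Neurog2 peaks without a Tbr2 peak also occurred outside the autosomes. On the X chromosome there were 22 of 43 Neurog2 peaks beside 212 listed Tbr2 peaks, with a median of 13.5 tags (range 9 to 77), a median width of 106 bp and a median fold change of 12.9. Of these, 9 had a Tbr2 peak within 10 kb, and the median gap was 28.2 kb. On the Y chromosome only 6 Tbr2 peaks were listed, and there were 20 of 23 Neurog2 peaks, with a median of 79.5 tags, 28.2 tags per 100 bp and a fold change of 6.26. The mitochondrial genome had 0 listed Tbr2 peaks, so its 3 Neurog2 peaks could not be shared. They had 488 to 2312 tags and a median fold change of 1.92.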
